A study of Saccharomyces cerevisiae with 8 samples.

Results

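The comparison was between overexpressed CENP-A(Cse4) in cells with and without Psh1. Its members were the nuclear ChIP peaks of the psh1 pGAL-3Flag-CSE4 strain, 14197 regions of the 148546 in all 8 peak lists of the study. They were divided by whether they overlapped a pGAL-3Flag-CSE4 ChIP peak by at least 1 bp. On this rule 3589 were shared peaks and 10608 were gained peaks, and 4033 of the 4043 pGAL-3Flag-CSE4 peaks had a counterpart in psh1 pGAL-3Flag-CSE4. "Gained" here means only that no peak was listed at that place in pGAL-3Flag-CSE4.

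CENP-A(Cse4) is the histone H3 variant of the budding yeast centromeric nucleosome, on which the kinetochore is built. Psh1, an E3 enzyme, attaches ubiquitin to CENP-A(Cse4) and so marks it for the proteasome, which limits how much of the protein stays in the chromosome arms. Yeast promoters usually hold a nucleosome-depleted stretch between a nucleosome over the start of the gene, called the start nucleosome here, and another upstream of it, called the upstream nucleosome. Further nucleosomes follow in a regular array into the gene.

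Both strains were Saccharomyces cerevisiae of the W303 background, with the endogenous CSE4 gene deleted and 3Flag-CSE4 under its own promoter at URA3. Both also carried 3Flag-CSE4 under the galactose-inducible GAL promoter, integrated with LEU2 at leu2, and PSH1 was deleted in psh1 pGAL-3Flag-CSE4 only. Asynchronous cells grew in YEP with lactic acid and received 2% galactose for 2 h. Crosslinked chromatin was cut with MNase, which digests the linker between nucleosomes, and the tagged histone was precipitated with an anti-Flag antibody. Each strain had 1 ChIP library, so there was no replicate spread, no test between strains and no p-value. The intervals of shares are 95% Wilson intervals on numbers of peaks, pairs or genes, that of a median is a 95% interval from the ordered values, and both cover counting error only.

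The peaks were stretches above 1 fixed height of a signal that the authors scaled to each strain's own centromeres. The lists held no heights. Under a fixed height, a wider, joined or additional peak cannot be told apart from a stronger signal at the same nucleosomes. The transgenes hold CSE4, URA3, LEU2 and GAL promoter DNA. The endogenous CSE4 gene was deleted in both strains, so peaks in the CSE4 frame are those of the inserted copies. At URA3, LEU2 and the GAL promoter, peaks cannot be told apart from peaks on the inserted copies. At PSH1 itself the reading frame had 8 input peaks in pGAL-3Flag-CSE4 and 0 in psh1 pGAL-3Flag-CSE4. SLP1, which was not altered in either strain, had 10 and 0, so this check of the label was weak.

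Chromosome XI stood apart in psh1 pGAL-3Flag-CSE4, in both ChIP and input, and the main values are given with and without it. Gained peaks had a density of 1.50 per kb on chromosome XI, against 0.664 on XII to 0.990 on VIII for the other 15 chromosomes, whose median was 0.851. Peaks covered 24.9% of chromosome XI and 12.3% to 17.8% of each of the others. In pGAL-3Flag-CSE4 the density on chromosome XI was 0.360 peaks per kb, inside the range of the others, 0.230 to 0.404. The psh1 pGAL-3Flag-CSE4 input list was shorter than the pGAL-3Flag-CSE4 one on the 15 other chromosomes, with ratios of 0.336 to 0.556, while on chromosome XI the ratio was 1.02, 2320 peaks against 2280. Chromosome XI also had many peaks in psh1 3Flag-CSE4, from cells without the GAL copy. There 14 of the 50 ChIP peaks outside centromeres were on chromosome XI. The psh1 3Flag-CSE4 input list held 2171 peaks on chromosome XI of 31256 nuclear ones, against 2291 of 39939 in 3Flag-CSE4. The number of copies of chromosome XI in these strains cannot be read from peak lists. The part of the input difference in the values for chromosome XI was not tested.

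**Figure D1:**
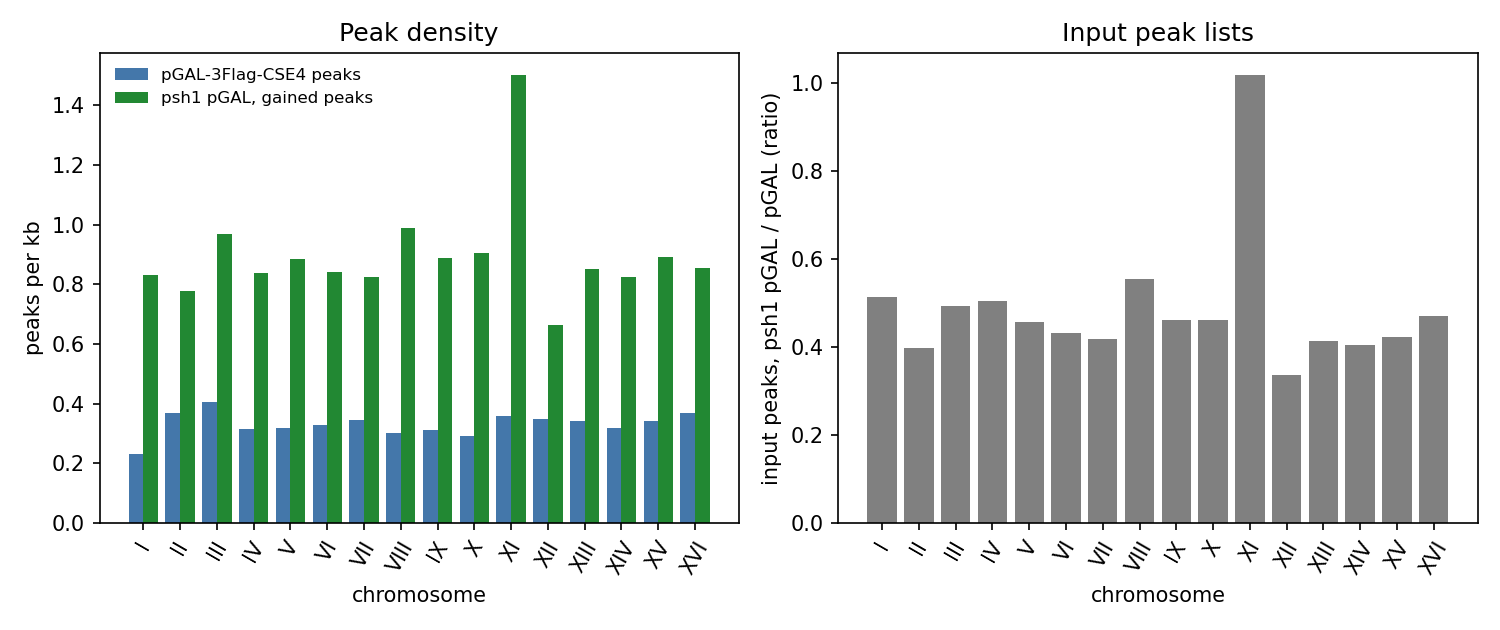
Left, ChIP peaks per kb on each of the 16 nuclear chromosomes, for all pGAL-3Flag-CSE4 peaks and for the gained peaks of psh1 pGAL-3Flag-CSE4, 1 library each. Right, number of input peaks in psh1 pGAL-3Flag-CSE4 divided by that in pGAL-3Flag-CSE4. Chromosome XI has the highest bar for gained peaks, 1.50 per kb, and the only input ratio above 0.556.

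Examples of the underlying DNA show the kinds of change described below. All sequences were read from the R64 reference, 5′ to 3′. The shortest psh1 pGAL-3Flag-CSE4 peak outside a centromere that joined a pair of pGAL-3Flag-CSE4 peaks lay at chrIII:291240-291460, between YCR095W-A and HMRA2. It is shown on the plus strand, with the bases under the pGAL-3Flag-CSE4 peaks (291240 to 291280 and 291350 to 291440) in capitals and the bases added in psh1 pGAL-3Flag-CSE4, including the 69 bp between the pair, in lower case.
Joined peak, chrIII:291240-291460: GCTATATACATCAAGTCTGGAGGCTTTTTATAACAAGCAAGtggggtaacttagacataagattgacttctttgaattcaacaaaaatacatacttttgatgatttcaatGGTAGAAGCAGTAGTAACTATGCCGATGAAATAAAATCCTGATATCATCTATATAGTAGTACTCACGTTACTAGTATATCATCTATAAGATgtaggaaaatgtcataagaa
A joined gap of this length was common among close neighbours, as set out under joining.

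A centromeric example shows a peak that stayed in place. At CEN10 the peak was the same 91 bp in both strains. It is given on the plus strand, in capitals because all of its bases were under the pGAL-3Flag-CSE4 peak.
CEN10, chrX:436310-436400: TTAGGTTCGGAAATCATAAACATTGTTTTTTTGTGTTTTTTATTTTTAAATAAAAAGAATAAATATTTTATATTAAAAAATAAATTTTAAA
The CEN10 stretch was 87.9% A+T.

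The SAP4 promoter and the UTH1 gene were loci that the study also examined by ChIP-qPCR. The 500 bp promoter windows of both genes had no pGAL-3Flag-CSE4 peak and held gained peaks, while the UTH1 reading frame had no peak in either strain. SAP4 encodes a protein that associates with the Sit4 phosphatase, and UTH1 a protein of the outer mitochondrial membrane and cell wall. Each is given along the strand of its gene with the gained peak in capitals and short flanks in lower case.
SAP4 promoter, chrVII:67126-67274, minus strand: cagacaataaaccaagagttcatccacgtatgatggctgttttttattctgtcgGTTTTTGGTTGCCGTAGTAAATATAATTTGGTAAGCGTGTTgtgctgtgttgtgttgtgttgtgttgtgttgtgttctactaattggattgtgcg
UTH1 promoter, chrXI:519301-519449, plus strand: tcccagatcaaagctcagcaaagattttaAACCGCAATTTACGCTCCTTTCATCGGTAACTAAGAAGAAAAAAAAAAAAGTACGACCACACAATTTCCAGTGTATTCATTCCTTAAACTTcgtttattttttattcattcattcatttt
The SAP4 peak, 41 bp at 67180 to 67220, was at the narrowest width in the lists and its centre lay 241 bp upstream of the start. The UTH1 peak spanned 519330 to 519420, with its centre 152 bp upstream, on chromosome XI. SLP1, which encodes an integral membrane protein, already had a pGAL-3Flag-CSE4 peak over its start, 624500 to 624740. In psh1 pGAL-3Flag-CSE4 this became 624490 to 624920, a growth almost wholly into the gene.

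Shared peaks were wider in psh1 pGAL-3Flag-CSE4. Over all 4035 overlapping pairs the median change was +120 bp, from a median of 71 bp to 211 bp, and the psh1 pGAL-3Flag-CSE4 peak was the wider in 98.4% of pairs. Where exactly 1 peak met 1 peak, 3163 pairs, the median change was +80 bp, from 71 to 161 bp, with quartiles of 50 and 190 bp and a maximum of 800 bp. Of these pairs 3102 were wider, 35 equal and 26 narrower. Both edges had moved outward in 2894 pairs (91.5%), so most peaks grew on both sides, but large growth was mainly on 1 side. An edge had moved by at least 100 bp in 1090 pairs, on 1 side in 957 of them and on both sides in 133. Without chromosome XI the median change of 2981 pairs was 80 bp, and for the 182 pairs on chromosome XI it was 180 bp.

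The distribution of widths had a second group. Shared peaks were most frequent at 120 to 139 bp and had a further maximum at 360 to 379 bp, with 5.15% of shared peaks in that 20 bp bin and 2.84% at 300 to 319 bp. The gained peaks were narrow, as the pGAL-3Flag-CSE4 peaks were, with 0.415% of them in the bin at 360 to 379 bp. Growth differed among regions. The median change was 60 bp for the 675 pairs centred in genes, 90 bp for 2275 intergenic pairs, 70 bp for 88 at origins and 120 bp for 116 within 10 kb of a centromere.

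**Figure D2:**
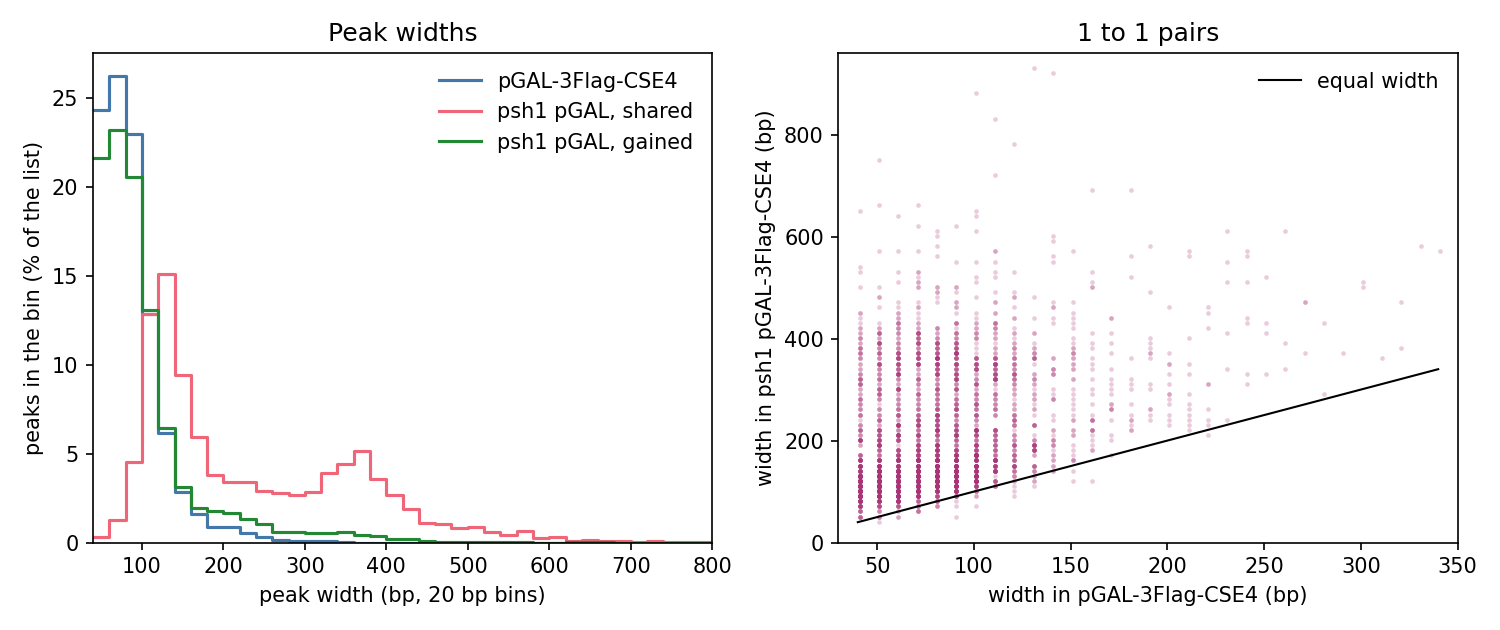
Left, widths of pGAL-3Flag-CSE4 peaks, shared peaks and gained peaks as a percentage of each list in bins of 20 bp, drawn up to 800 bp. Right, width in both strains for the 3163 pairs of 1 peak with 1 peak, each point a pair, with a line of equal width; 3102 points lie above the line, and the shared peaks show a second maximum at 360 to 379 bp.

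The edge that moved depended on where the peak lay relative to the annotated start of a gene. For protein-coding genes this is the start of the reading frame, so the nucleosome places named below are approximate. For pGAL-3Flag-CSE4 peaks centred within 100 bp of a start, the place of the start nucleosome, the upstream edge had moved out by at least 100 bp in 348 of 1153 pairs (30.2%, interval 27.6 to 32.9). The downstream edge had done so in 58 (5.03%, 3.91 to 6.45). For peaks centred 300 to 101 bp upstream, the place of the upstream nucleosome, the order was the opposite, with the downstream edge in 257 of 928 pairs (27.7%, 24.9 to 30.7) and the upstream edge in 183 (19.7%, 17.3 to 22.4). Large growth from either side was thus more often toward the stretch between them than away from it. Without chromosome XI the shares were 29.2% and 4.57% at starts, and 25.6% and 18.5% upstream.

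Neighbouring peaks were joined when they were close. A psh1 pGAL-3Flag-CSE4 peak covered 2 pGAL-3Flag-CSE4 peaks in 402 cases, 3 in 19 and 4 in 2, so 423 peaks took in 869 pGAL-3Flag-CSE4 peaks, 21.5% of that list. Without chromosome XI there were 394 such peaks. The median width of a peak over 2 was 381 bp. Of the 828 neighbouring pairs with a gap of at most 300 bp, 441 were joined (53.3%, 49.9 to 56.6), and 52.8% without chromosome XI.

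The share joined did not fall evenly with the gap. It was 87.8% for gaps under 75 bp, 80.0% at 75 to 99 bp and 57.4% at 100 to 124 bp. It then reached a low of 34.5% (28.6 to 41.0) at 125 to 149 bp, and was 46.5% (39.4 to 53.7) at 150 to 199 bp and 52.4% (37.7 to 66.6) at 200 to 249 bp. The intervals of these 3 classes overlap, so the low was not separated from the classes after it. At 250 to 299 bp the share was 13.5%, and of 3049 gaps of 600 bp or more, 0 were joined. Joined gaps held no base of a gene in 408 of 441 cases (92.5%), against 302 of 387 (78.0%) for gaps of at most 300 bp that were not joined. The bases of the 2 kinds of gap were alike in composition, 67.8% and 66.9% A+T.

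**Figure D3:**
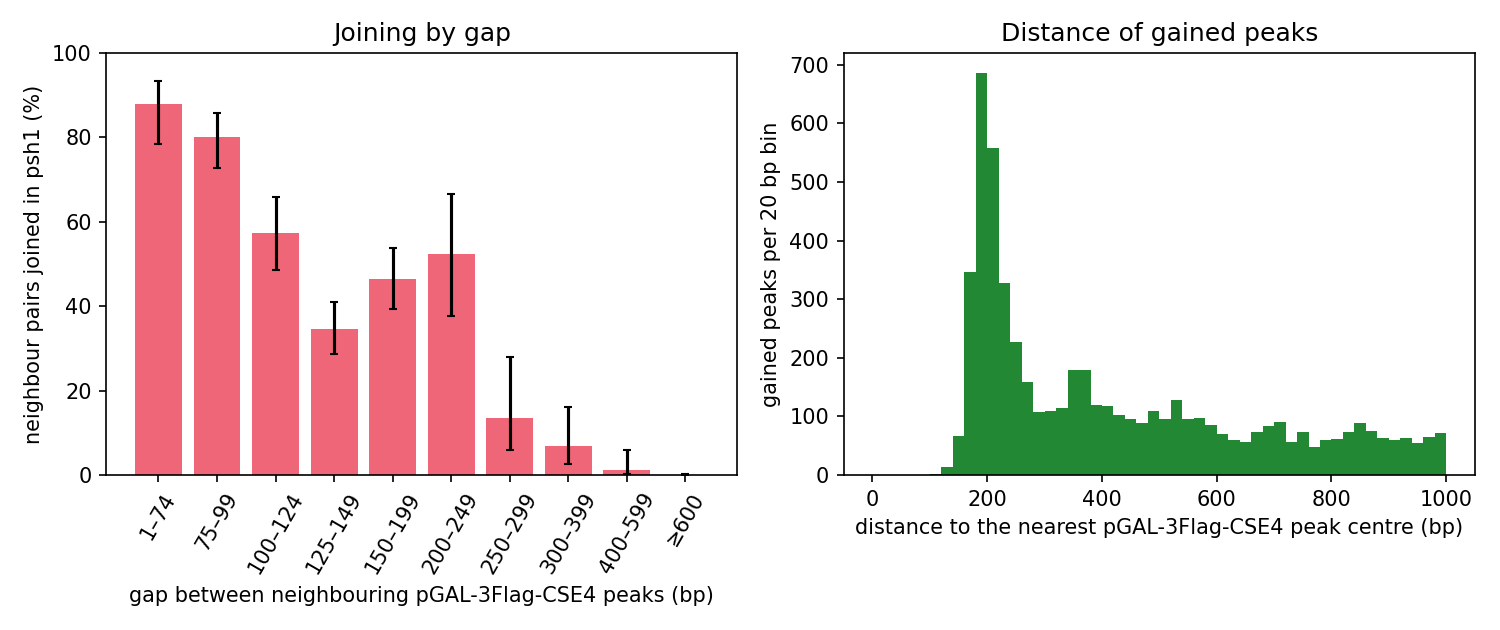
Left, share of neighbouring pGAL-3Flag-CSE4 peak pairs that lay under 1 psh1 pGAL-3Flag-CSE4 peak, by the gap between them, with 95% Wilson intervals; the share is 87.8% under 75 bp, 34.5% at 125 to 149 bp and 0 from 600 bp. Right, number of gained peaks by distance from centre to centre to the nearest pGAL-3Flag-CSE4 peak, in 20 bp bins up to 1000 bp, with the highest bar at 180 to 199 bp.

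Outside centromeres 1 peak joined 4 pGAL-3Flag-CSE4 peaks and 16 joined 3, and all 17 were centred between genes. The peak at chrIV:562400-563310, 911 bp wide, took in 4, in the divergent region between CDC34, the ubiquitin-conjugating enzyme of the SCF ligase, and PST1, a cell wall protein. The 4 widest of those over 3 are named next. They lay at chrVI:143920-144940 between YFL002W-A and SPB4, a helicase for ribosome assembly, and at chrV:151110-151930 between IRC22 and MNN1, a mannosyltransferase. The remaining ones were at chrXIV:498300-499030 beside FKH2, a forkhead factor of the cell cycle, and at chrV:303320-303900 between VTC1 and ALD5. The peaks on VI and V at SPB4 and MNN1 were within 10 kb of a centromere.

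All 16 centromeres were under a peak in both lists. The pGAL-3Flag-CSE4 peaks there were narrow and even, 91 to 111 bp with a median of 101 bp. In psh1 pGAL-3Flag-CSE4 they ran from 91 to 1031 bp with a median of 391 bp, and 8 of them had joined 2 or more pGAL-3Flag-CSE4 peaks. The peak was the same width at CEN2 and CEN10, wider by 10 bp at CEN5, CEN13 and CEN16 and by 20 bp at CEN7, and wider by 240 to 930 bp at the other 10. The growth was often on 1 side, as at CEN1, where the left edge stayed at 151500 and the right edge moved from 151590 to 151890. At CEN8 it was on both, from 105580 to 105680 in pGAL-3Flag-CSE4 to 105200 to 106230. The scaling to centromeres and the underrepresentation of centromeric DNA in such libraries bear on these widths, and their part was not tested.

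The most frequent distance of gained peaks from pGAL-3Flag-CSE4 peaks was about 1 nucleosome. By the rule a gained peak overlapped no pGAL-3Flag-CSE4 peak, so the shortest distances were excluded beforehand. The fullest 20 bp bin of the distance between centres was 180 to 199 bp, with 686 peaks, and 2261 gained peaks (21.3%, 20.5 to 22.1) lay at 140 to 260 bp. Many others were far from any pGAL-3Flag-CSE4 peak. The median distance was 917.5 bp (885 to 950), 5051 gained peaks (47.6%) were over 1000 bp away and the farthest was 30445 bp away. Without chromosome XI the median was 910 bp and the share at 140 to 260 bp was 22.0%. On chromosome XI that share was 15.1% (13.0 to 17.5), a smaller share than on the other chromosomes.

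At the edge of the rule, the smallest overlap of a shared peak was 21 bp, and the smallest gap between a gained peak and a pGAL-3Flag-CSE4 peak was 29 bp. Only 10 gained peaks had a gap of 50 bp or less, so few gained peaks were near misses of the 1 bp rule. Membership did depend on the overlap required, as 12653 peaks were gained when at least 50% of a peak had to be covered.

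Neighbouring peak centres had a median spacing of 2160 bp with Psh1 and 345 bp without it, where the fullest bin was 180 to 199 bp. A minority of peaks lay in rows. Runs of at least 4 peaks with centres at most 250 bp apart numbered 478 and held 2210 peaks (15.6%), against 11 runs with 46 peaks (1.14%) in pGAL-3Flag-CSE4. Without chromosome XI there were 425 and 9. The longest run held 11 peaks, 7 of them gained, at chrIII:111550-113580 over RER1, a Golgi retrieval receptor, and its neighbours, with a median spacing of 177.5 bp. This run lay within 10 kb of a centromere, CEN3. Another run of 11, 9 of them gained, lay at chrII:389220-391060 over ECM8, with centres 150 to 220 bp apart.

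Counted in bases, psh1 pGAL-3Flag-CSE4 peaks covered 1554272 bp that were not under a pGAL-3Flag-CSE4 peak. Gained peaks made up 67.9% of these bases, the outer edges of shared peaks 28.5% and the stretches between joined peaks 3.61%. The 3 portions lay in different places. Gene bases were 36.1% of the bases in gained peaks, 20.3% of those at outer edges and 3.05% of those between joined peaks, where the nuclear genome as a whole was 73.4%. A+T content was 62.0%, 64.7% and 67.4% in the same order, and 61.7% in the nuclear genome. Only 2408 bp under pGAL-3Flag-CSE4 peaks were not covered in psh1 pGAL-3Flag-CSE4.

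Near centromeres both kinds of peak were denser. Within 10 kb of a centromere the density was 1.17 gained peaks per kb and 0.653 pGAL-3Flag-CSE4 peaks per kb. For gained peaks it was then 1.07 at 10 to 50 kb, 0.897 at 50 to 200 kb and 0.816 farther away, and 1.14, 1.02, 0.852 and 0.787 without chromosome XI. The pGAL-3Flag-CSE4 density was level beyond 10 kb, at 0.326, 0.332 and 0.323. Within 10 kb of a chromosome end there were 0.400 gained peaks per kb.

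Most promoters were overlapped once Psh1 was missing. Starts and ends were those of the annotated genes, which for protein-coding genes are the bounds of the reading frame. The study placed its windows at transcription start and termination sites, so its promoters and 3′ ends are not the same stretches. Over the 6413 nuclear genes, the 500 bp upstream of the start was overlapped in pGAL-3Flag-CSE4 for 47.2%, only in psh1 pGAL-3Flag-CSE4 for 45.5%, and in neither strain for 7.38%, with 1 promoter overlapped in pGAL-3Flag-CSE4 only. A new peak lay in 2883 of the 2915 gained promoters, and the other 32 were reached by a grown shared peak. For the 500 bp downstream of the gene end the share gained was 39.1%, and for the gene body 51.0%. Neighbouring genes often share a window, so the classes of adjacent genes were not independent. Without chromosome XI 2756 of 6074 promoters (45.4%) and 2353 3′ ends (38.7%) were gained.

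Most promoters held on 1 side in pGAL-3Flag-CSE4 were held on both in psh1 pGAL-3Flag-CSE4, as were most promoters of all genes. A promoter was scored as both sides when peaks lay at both of these places, within 100 bp of the start and 300 to 101 bp upstream of it. In pGAL-3Flag-CSE4 770 genes had both, 837 the start only, 1141 the upstream side only and 3665 neither. Of the 837 genes with the start only, 743 (88.8%) had both sides in psh1 pGAL-3Flag-CSE4, and of the 1141 with the upstream side only, 995 (87.2%) did. Of the 3665 with neither, 2251 (61.4%) went straight to both sides and 614 (16.8%) stayed with neither. In all 4756 genes (74.2%) had both sides in psh1 pGAL-3Flag-CSE4.

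Gained peaks reached farther into genes than pGAL-3Flag-CSE4 peaks. The rule ties shared peaks to the places of pGAL-3Flag-CSE4 peaks, so their position is not a separate result. Of the gained peaks 23.7% were centred within 100 bp of the nearest start and 19.3% at 300 to 101 bp upstream, against 30.7% and 37.3% of shared peaks. At 101 to 300 bp after the start, the place of the second nucleosome of a gene, were 10.95% of gained and 1.78% of shared peaks. For all pGAL-3Flag-CSE4 peaks the share there was 2.03%. In the profile around starts, gained peaks covered 10.5% of genes at 200 bp into the gene and 6.64% at 350 bp, with lows between them, and shared peaks covered 2.31% and 2.18%. By the region of its centre, 43.1% of gained and 15.1% of shared peaks lay in genes, against 19.6% of pGAL-3Flag-CSE4 peaks. Without chromosome XI the shares of gained and shared peaks were 41.2% and 15.2%. When any gene base counted, so that only peaks with none were intergenic, the shares were 56.7% and 50.04%. By the region of the centre again, 60.9% of the gained peaks on chromosome XI lay in genes, against the 41.2% without it.

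**Figure D4:**
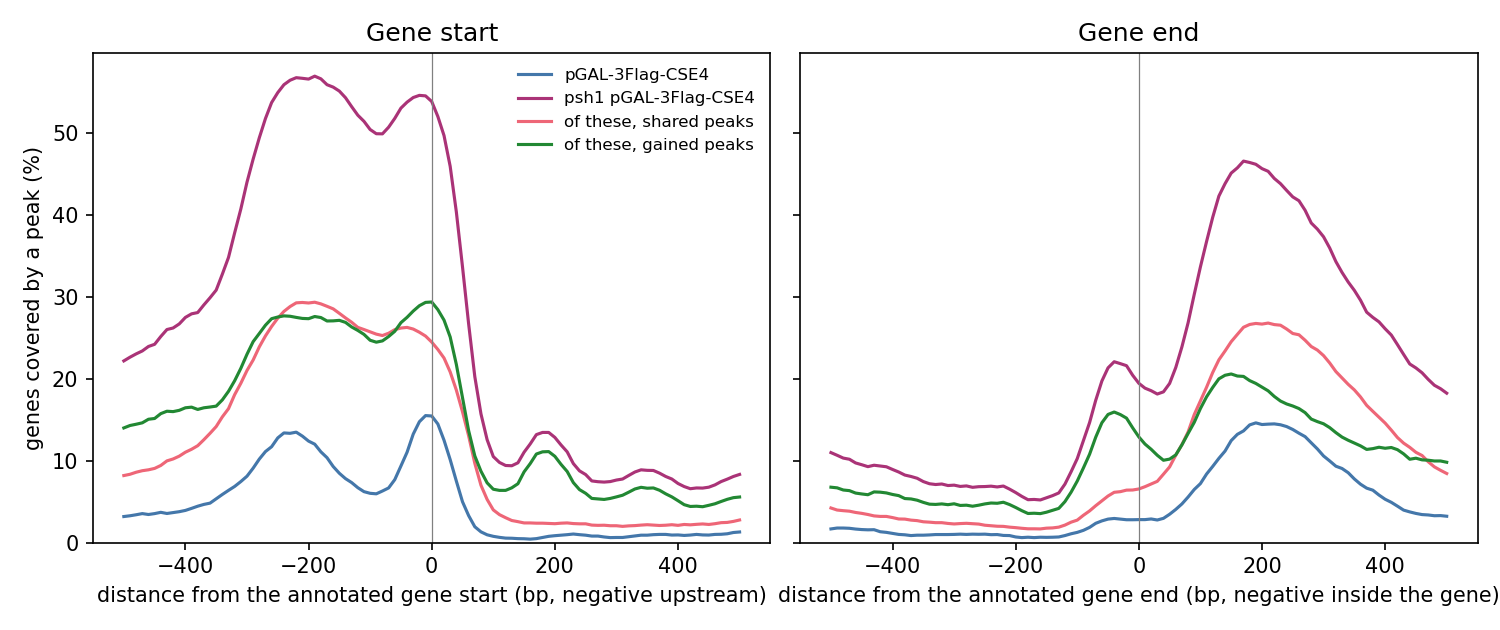
Share of nuclear genes covered by a peak at each 10 bp step from the annotated start (left, negative upstream) and end (right, negative inside the gene), for both strains and for the shared and gained peaks of psh1 pGAL-3Flag-CSE4. Gained peaks show small maxima inside the gene, with 10.5% of genes covered at 200 bp from the start, where shared peaks cover 2.31%.

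The middle of long genes was nearly free of CENP-A(Cse4) peaks while Psh1 was present. In the 3592 protein-coding genes of at least 1000 bp, leaving out 200 bp at each end, 19 pGAL-3Flag-CSE4 peaks and 1555 gained peaks were centred. The gained peaks lay in 917 genes (25.5%, 24.1 to 27.0), and 141 genes held 3 or more. Without chromosome XI there were 1225 gained peaks in 790 of 3396 genes (23.3%), and on chromosome XI 330 in 127 of 196 (64.8%, 57.9 to 71.1). The density remained below that of the gene ends, at 0.260 gained peaks per kb in the interior, 1.40 in the first 200 bp and 1.10 in the last 200 bp.

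The 5 reading frames named here had the most gained peaks, the last of them chosen by peaks per kb from 7 frames tied at 9. UBP11, a ubiquitin-specific protease gene, TFC3, which encodes a subunit of TFIIIC, TOR2, a kinase gene, and DYN1, the dynein heavy chain gene, each held 10, and PES4, which encodes a putative RNA-binding protein, held 9. UBP11, TOR2 and DYN1 are on chromosome XI, and TFC3 lies within 10 kb of a centromere, CEN1. In PES4, of 1836 bp, gained peaks ran from 21 to 1671 bp after the start with a median spacing of 165 bp. In TFC3 they ran from 1116 to 3501 bp with a median spacing of 220 bp, and peaks covered 30.7% of the frame in psh1 pGAL-3Flag-CSE4 and 2.16% in pGAL-3Flag-CSE4. In DYN1, of 12279 bp, the 10 peaks covered little of the frame, 5.18% with the edges included. Over all reading frames, 772 of the 1812 spacings between successive gained centres (42.6%) were at most 250 bp, and the fullest bin was 180 to 199 bp.

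The widest gained peak inside TFC3 is an example of coding DNA under CENP-A(Cse4) near a centromere. TFC3 lies within 10 kb of CEN1, so by region this peak was not among those counted in genes. The peak is 111 bp long, 68.5% A+T, and is given on the minus strand, which is the coding strand of TFC3.
TFC3, chrI:147610-147720, minus strand: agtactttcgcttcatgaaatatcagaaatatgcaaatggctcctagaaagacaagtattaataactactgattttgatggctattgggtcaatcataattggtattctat
Gained peaks in genes had a median of 59.2% A+T and intergenic gained peaks 63.4%, and for shared peaks the medians were 60.4% and 64.2%.

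The 5 widest gained peaks were all intergenic and 631 to 671 bp wide. They lay between PIR1 and PIR3, which encode cell wall proteins (chrXI:143060-143730), between YHL041W and ARN1, an iron siderophore transporter (chrVIII:17630-18290), and before ADH3, the mitochondrial alcohol dehydrogenase (chrXIII:433450-434100). The others lay between DGR2 and OAC1, a mitochondrial oxaloacetate carrier (chrXI:216670-217310), and before VCX1, a vacuolar calcium exchanger (chrIV:232080-232710).

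Counts differed with the kind of intergenic region. Divergent regions, with a promoter at each end, held 842 pGAL-3Flag-CSE4 and 2446 gained centres, or 2.90 gained per pGAL-3Flag-CSE4 peak. Tandem regions, with 1 promoter and 1 gene end, held 1929 and 2657 (1.38 per peak), and convergent regions, with no promoter, 426 and 630 (1.48 per peak). There were 1618 divergent, 3000 tandem and 1604 convergent regions, with median lengths of 501, 390 and 219 bp. In the same order, gained centres per kb were 2.24, 1.65 and 1.33, and pGAL-3Flag-CSE4 centres per kb 0.772, 1.20 and 0.901. Regions covered over at least 90% of their length numbered 2, 1 and 0 in pGAL-3Flag-CSE4. In psh1 pGAL-3Flag-CSE4 they numbered 130 of 1618, 226 of 3000 and 19 of 1604.

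Other annotated features were overlapped as well, tRNA and snoRNA genes less often than genes as a whole. No share for genome stretches of matched length was computed. Replication origins overlapped by a peak numbered 165 of 352 in pGAL-3Flag-CSE4 and 295 in psh1 pGAL-3Flag-CSE4, and long terminal repeats of retrotransposons 26 and 165 of 384. Of 275 tRNA genes, 21 (7.64%) were overlapped with Psh1 present and 83 (30.2%) without it, against 21.1% and 72.1% of all genes. The 500 bp upstream was overlapped for 41 (14.9%) and 191 (69.5%), against 47.2% and 92.6% of all genes. For 76 snoRNA genes themselves the numbers were 2 (2.63%) and 21 (27.6%). Reads in repeated DNA can fail the mapping score the authors required, and the part of this in the counts at repeats and tRNA genes was not tested. A pGAL-3Flag-CSE4 input peak overlapped 53.1% of the tRNA genes and 60.9% of the long terminal repeats.

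The promoters overlapped in neither strain were more often near chromosome ends and without input peaks. Of these 473 genes, 133 (28.1%) were within 20 kb of a chromosome end, against 3.87% of all genes. In the pGAL-3Flag-CSE4 input, 275 of the 473 promoters (58.1%) had no peak, against 6.11% of all promoters. In the psh1 pGAL-3Flag-CSE4 input 76.1% had none, against 12.8% of all.

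Promoter classes were then counted for lists of genes, beside 45.5% gained over all genes. A promoter could be gained only where pGAL-3Flag-CSE4 had no peak, and psh1 pGAL-3Flag-CSE4 peaks overlapped 92.6% of all promoters. A high share gained thus went with a low share overlapped in pGAL-3Flag-CSE4, which was 47.2% over all genes. That share was 13.1% for ribosomal protein genes, 24.2% for proteasome genes and 17.6% for heat shock genes. Genes for cytosolic ribosomal proteins had 18 of 137 promoters overlapped in both strains, 107 only in psh1 pGAL-3Flag-CSE4 (78.1%, 70.5 to 84.2) and 12 in neither. Among those gained were RPL30, RPS2, RPL4A and RPL19B. Without chromosome XI 103 of 132 were gained. Even so, the ribosomal protein promoters held few bases under peaks, with a mean of 129 bp per window without Psh1 and 9.07 bp with it, against 218 and 39.9 bp over all genes. Many ribosomal protein genes exist as near-identical pairs, whose reads can fail the mapping filter, and the part of this in the counts was not tested. An input peak was present at 97.8% of their promoters in pGAL-3Flag-CSE4.

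Proteasome subunit genes and heat shock genes had similar counts. Of 33 proteasome genes, 25 were gained (75.8%, 59.0 to 87.2), including RPN10, a ubiquitin receptor, and RPT1 and RPT6, which encode ATPases, and 8 were overlapped in both strains. Of 17 heat shock chaperone genes, 14 were gained (82.4%, 59.0 to 93.8), including SSA1, HSP82 and HSP104, and the 3 overlapped in both were HSP12, SIS1 and SSE1. The 18 genes of glycolysis and fermentation had 10 gained, TDH3, PGK1 and ENO2 among them, and 8 in both, such as CDC19, PDC1 and ADH1. At glycolytic promoters 61.1% had an input peak in pGAL-3Flag-CSE4.

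Counts for the cell cycle and the kinetochore lists changed with the definition of an overlapped promoter. Of 9 cyclin genes 8 were overlapped in both strains and 1, CLB2, a mitotic cyclin gene, only in psh1 pGAL-3Flag-CSE4 (11.1%, 1.99 to 43.5). With windows of 250 bp 4 of the cyclin genes were gained. Of 20 inner kinetochore genes 13 were in both, such as CBF1, MIF2 and CTF13, and 7 were gained (35.0%, 18.1 to 56.7), including SCM3, the chaperone gene of CENP-A(Cse4). Of 20 outer kinetochore genes 14 were in both, such as DSN1 and SPC105, and 6 were gained (interval of the share 14.5% to 51.9%), including NDC80 and DAM1, which encode microtubule-binding proteins. By the peak centre rather than any overlap, 11 of each kinetochore list were gained. The intervals of both kinetochore lists with the 500 bp windows hold the 45.5% of all genes.

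Chromatin genes were near the background. Of the 15 INO80 complex genes 8 were in both strains and 7 gained, INO80 itself and ARP5 and ARP8 among them. Of 11 genes of the SWR1 complex with its histone H2A.Z, 6 were in both, 4 gained, with SWR1 and HTZ1, and BDF1 in neither. Of 13 histone chaperone genes 8 were in both, such as ASF1, and 5 gained, such as SPT16 of the FACT complex. Of 9 histone genes 4 were in both, the divergent pairs HTA2 with HTB2 and HHT1 with HHF1, and 5 gained, HTA1 with HTB1, HHT2 with HHF2, and HHO1. The 25 Mediator genes had 14 in both and 11 gained. Of the genes for other ligases of CENP-A(Cse4), SLX5, UBR1 and RCY1 were in both and SLX8 was gained.

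**Figure D5:**
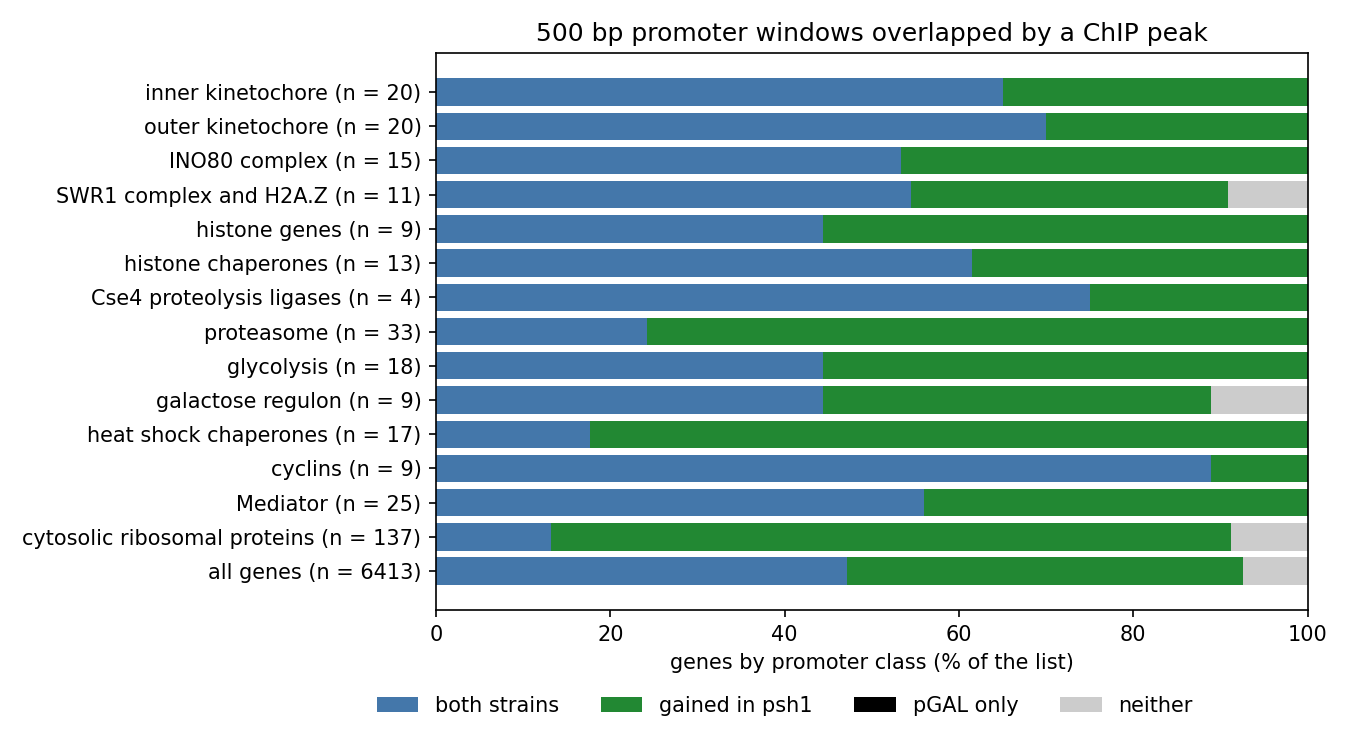
Genes of each list by promoter class, as a percentage of the list, for 500 bp windows upstream of the gene start, with all 6413 nuclear genes in the bottom bar. Ribosomal protein, proteasome and heat shock lists have 78.1%, 75.8% and 82.4% gained, against 45.5% of all genes. In pGAL-3Flag-CSE4 13.1%, 24.2% and 17.6% of their promoters were overlapped, against 47.2% of all genes, so more of them could be gained.

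At the galactose genes 4 of 9 promoters were overlapped in both strains, GAL1, GAL7, GAL10 and GAL4, and 4 were gained, GAL3, GAL80, PGM2 and GCY1. GAL2, the permease gene, was in neither. The region between GAL1 and GAL10 held a pair of pGAL-3Flag-CSE4 peaks, 278590 to 278670 and 278770 to 278900. In psh1 pGAL-3Flag-CSE4 these were 278570 to 278680 and 278760 to 278950, beside a gained peak at 278420 to 278490. The psh1 pGAL-3Flag-CSE4 peak over the upstream activating sequence is shown on the plus strand, with matches to the Gal4 motif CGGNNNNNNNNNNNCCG, searched on both strands, in capitals.
GAL1-GAL10, chrII:278570-278680: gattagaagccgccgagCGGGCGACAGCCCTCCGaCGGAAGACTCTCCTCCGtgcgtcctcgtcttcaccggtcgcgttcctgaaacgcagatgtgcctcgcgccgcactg
The stretch held 2 matches, and the motif occurred in 2.88% of all promoter windows. These bases were also present in the pGAL construct.

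At the altered genes peak widths varied. The LEU2 frame was under 1 pGAL-3Flag-CSE4 peak of 1391 bp, chrIII:91060-92450, the only pGAL-3Flag-CSE4 peak that was divided, into 3 peaks of 541, 561 and 141 bp in psh1 pGAL-3Flag-CSE4. At CSE4, where the frame was present only in the inserted copies, peaks covered 3.62% of it in pGAL-3Flag-CSE4 and 64.2% in psh1 pGAL-3Flag-CSE4. At URA3 the shares were 5.10% and 23.1%. At PSH1 a peak of 91 bp lay upstream of the frame in both strains, at 228500 to 228590 and at 228480 to 228570, and none lay in the deleted frame.

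The letters of 4 promoter motifs were counted by class. TTACCCG, the Reb1 site, occurred in 12.3% (11.2 to 13.6) of gained promoters, 8.66% (7.71 to 9.72) of those overlapped in both strains and 9.85% of all. A run of AAAAAAA was in 60.9% (59.1 to 62.6) of gained promoters, 69.6% (67.9 to 71.2) of those in both, 37.8% (33.6 to 42.3) of those in neither and 63.3% of all. CGCGC, the core of the Rsc3 site, was in 20.5%, 17.6%, 23.7% and 19.4%, and TATAAA in 59.4%, 63.3%, 61.7% and 61.4%, in the order gained, both, neither and all. Both strands were searched in windows of 500 bp, and a TATAAA match can overlap a run of A at its end. The median A+T content was 62.8% for gained promoters and 64.2% for those in both.

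Most gained peaks lay on nucleosomes mapped in an input. In the pGAL-3Flag-CSE4 input, a nucleosome peak centre was within 73 bp of the centre of 83.1% (82.3 to 83.8) of gained peaks, 75.9% (74.4 to 77.2) of shared peaks and 91.0% of the pGAL-3Flag-CSE4 peaks. The peaks of that input covered 33.0% of the nuclear genome, and those of the psh1 pGAL-3Flag-CSE4 input 13.2%. The share of all genome positions within 73 bp of an input peak centre was not computed, so these shares have no background beside them. A wide shared peak spans several nucleosomes, and its centre can fall between them. On the shorter input list of psh1 pGAL-3Flag-CSE4 itself the shares were 64.8% (63.8 to 65.7) of gained and 60.02% (58.4 to 61.6) of shared peaks. Without chromosome XI the shares on the pGAL-3Flag-CSE4 input were 83.5% and 76.3%.

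Only 10 pGAL-3Flag-CSE4 peaks had no counterpart in psh1 pGAL-3Flag-CSE4. They were 41 to 101 bp wide with a median of 51 bp, and 4 were on chromosome XII. Of these, 7 were in genes, namely XRS2, YJR149W, RFU1, NOP56, MTR10, KEL3 and the noncoding gene YNCL0035C. The other 3 were intergenic, beside FUR4, between RSA3 and UTP13, and between PKH2 and SDD3. All 10 lay on a pGAL-3Flag-CSE4 input peak and 4 on a psh1 pGAL-3Flag-CSE4 input peak. The nearest psh1 pGAL-3Flag-CSE4 peak was 59 to 2939 bp away, with a median of 174 bp. The widest, in XRS2, is shown on the plus strand.
XRS2, chrIV:1215060-1215160: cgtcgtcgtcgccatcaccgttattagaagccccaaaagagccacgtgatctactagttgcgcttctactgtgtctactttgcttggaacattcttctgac
It was 51.5% A+T, lower than the median of 63.1% for pGAL-3Flag-CSE4 peaks.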

How the data were processed

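The comparison used the peak lists of 4 libraries, 1 input and 1 ChIP library from each strain, grouped by the deposited labels. Lists of the strains without the GAL copy served only for the total of regions, chromosome XI and the results flagged for a closer look. The authors aligned paired reads to sacCer3 with BWA, kept mononucleosome-sized pairs of high mapping score, removed the input signal and set coverage relative to the centromeres. They set the ChIP coverage of the rDNA to 0 and called ChIP peaks above 1 height with DANPOS2. Every deposited line had a score of 0, so the lists give no peak heights, and they hold no read counts. The depth per library was not used here. Other deposited positions are in bp. Coordinates are R64, counted from 1. The overlap rule was 1 bp, and windows were 500 bp from the annotated start or end of a gene. Python 3.11.15, numpy 2.4.6, scipy 1.17.1, pandas 2.3.3 and matplotlib 3.10.9 were used, and the code was tested on simulated data. The members and the gene lists were chosen with earlier results of these data known. Named items were the altered genes and ChIP-qPCR loci, the 16 centromeres, the 5 peaks joining the most peaks, the 5 widest gained peaks, the 5 frames with the most gained peaks, every lost peak and the listed genes. ECM8, RER1 and the GAL motif were chosen after their values were seen. Alternatives changed 1 choice at a time. The list of all 340 named genes matched the annotation.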

Additional observations from a re-analysis of the deposited data

Results flagged for a closer look

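In data outside the comparison, the psh1 pGAL-3Flag-CSE4 ChIP list held 2 mitochondrial peaks, 111 and 81 bp wide, whereas the other 3 ChIP lists held 0. The psh1 3Flag-CSE4 ChIP list, from cells without the GAL copy, held 50 peaks outside centromeres, against 1 in 3Flag-CSE4. Of these 50, 14 were on chromosome XI, 49 overlapped a pGAL-3Flag-CSE4 peak and 50 a shared peak of psh1 pGAL-3Flag-CSE4, and 0 overlapped a gained peak.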

How the results depend on the processing

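Of 40 alternative values for the main results, 30 stayed within the interval of the value reported, or within 1.5 times of a count. The share of gained peaks was 89.1% when at least 50% of a peak had to be covered and 73.99% without chromosome XI. The median widening was 80 bp for pairs of 1 peak with 1 peak and 150 bp after peaks within 50 bp were merged, and the share of close neighbours joined was then 57.9%. With peaks of at least 50 bp the median distance of gained peaks was 1090 bp. The share of gained peaks in genes was 41.2% without chromosome XI, 39.5% with peaks of at least 50 bp, and 56.7% when only peaks with no gene base counted as intergenic, where that of shared peaks was 50.04%. Of 84 values for the lists of genes, 79 stayed within 1.5 times. The other 5 were 3 gained ligase genes and 4 gained cyclin genes with windows of 250 bp, 2 gained cyclin genes with peaks of at least 50 bp, and 11 gained genes in both kinetochore lists by peak centre. A stricter height could not be applied because the lists hold no height, and with 1 library per strain no replicate could be left out. No paired analysis was possible because each strain had 1 library of a kind.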
